A study of Sus scrofa with 12 samples.

Results

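The imprinted growth regulators DLK1, PEG3, PEG10, GRB10, PLAGL1, NNAT, CDKN1C, SGCE, IGF2R and NDN were followed in pig ovaries. They were picked by exact match of these 10 symbols to the gene names of the FPKM table, and all 10 were found among its 29884 genes. Ovaries came from 3 sows with small litter size (SLS, a group mean of 8.48 piglets per litter) and 3 sows with large litter size (LLS, 16.19 piglets per litter). Every sow was killed 4 days after her 4th delivery, received no treatment that the labels name, and gave her left ovary, and age and genotype are not given in the labels. Each ovary is called by its label, ZD2, ZD3 and ZD12 for SLS and ZD5, ZD7 and ZD8 for LLS, with 1 library of total RNA without ribosomal RNA and 1 small RNA library per ovary. The tissue was the whole frozen ovary and not a sorted cell type. The comparison asks whether the level of these genes differed between ovaries of the SLS and LLS groups.

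Imprinted genes are transcribed mainly from the copy inherited from a given parent, and the choice is held by methylation of CpG-rich DNA that is set in the germ line. Many of them control growth of the fetus and placenta, and several act on the insulin-like growth factor (IGF) pathway or on the cell cycle. IGF2R carries IGF2 from the cell surface to the lysosome, and GRB10 is an adaptor that dampens signalling from the insulin and IGF receptors. CDKN1C blocks cyclin-dependent kinases, and PLAGL1 and PEG3 are zinc finger proteins that act in growth control. PEG10 derives from a retrotransposon and is required for the placenta, and SGCE, its neighbour, encodes epsilon-sarcoglycan. NDN (necdin) restrains growth in neurons, DLK1 is a ligand-like relative of the Notch ligands that holds back differentiation, and NNAT (neuronatin) is a small membrane protein of the endoplasmic reticulum. Transcripts of both parental copies were counted together here, so the levels below say nothing of which copy was used.

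Because the marks that carry imprinting sit on CpG sites, the DNA in front of the genes is shown first, for the pair that shares a start region and for CDKN1C and PEG3, which had a high level in a single ovary. All positions are on Sscrofa11.1, which is also the assembly to which the authors mapped the reads, and capitals mark CpG sites. SGCE (chromosome 9, 74402714 to 74473904, minus strand) and PEG10 (chromosome 9, 74474121 to 74486983, plus strand) start head to head. The 216 bases between their starts, chr9:74473905-74474120, hold 18 CpG sites at 68.5% GC and are printed on the plus strand. The 250 bases before CDKN1C, chr2:2022093-2022342 on the minus strand, hold 38 CpG sites at 80.8% GC. The 250 bases before PEG3, chr6:61307789-61308038 on the minus strand, hold 15 CpG sites.
SGCE to PEG10: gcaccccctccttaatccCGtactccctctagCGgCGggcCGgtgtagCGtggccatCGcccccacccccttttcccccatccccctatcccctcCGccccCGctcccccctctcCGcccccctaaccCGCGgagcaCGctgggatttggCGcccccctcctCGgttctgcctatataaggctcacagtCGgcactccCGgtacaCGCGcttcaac
CDKN1C: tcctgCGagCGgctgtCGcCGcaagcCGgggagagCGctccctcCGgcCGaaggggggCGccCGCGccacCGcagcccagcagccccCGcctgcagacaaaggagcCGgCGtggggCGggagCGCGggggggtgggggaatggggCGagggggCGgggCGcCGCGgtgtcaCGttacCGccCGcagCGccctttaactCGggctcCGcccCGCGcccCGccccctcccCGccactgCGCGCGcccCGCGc
PEG3: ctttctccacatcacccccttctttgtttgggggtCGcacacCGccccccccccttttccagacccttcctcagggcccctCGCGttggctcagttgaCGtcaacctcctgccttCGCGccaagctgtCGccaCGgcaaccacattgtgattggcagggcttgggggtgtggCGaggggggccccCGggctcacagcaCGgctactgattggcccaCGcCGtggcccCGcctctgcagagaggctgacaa

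CpG sites were plentiful at the starts of most of these genes. From 250 bases before to 50 bases after the annotated start, 8 of the 10 genes held at least 20 CpG sites (80.0%), and 42.0% of 19525 protein-coding genes did. The median was 26.5 CpG sites for the 10 genes and 16 for all protein-coding genes. GRB10 held 55, DLK1 52, IGF2R 48, CDKN1C 45 and NDN 31, whereas PEG3 held 22, PEG10 and SGCE 21 each, NNAT 13 and PLAGL1 1. The windows of PEG10 and SGCE cover mostly the same bases, so the 8 genes are not 8 separate stretches of DNA. PLAGL1 has 29 annotated transcripts with several starts, and only the outermost start was read. Short motifs were searched on both strands of the same window. The core bound by the imprinting factor ZFP57, TGCCGC, lay at the starts of DLK1 and NNAT (20% of the 10 genes) and at 18.3% of all starts. The core bound by PLAGL1 itself, GGGGCCCC, lay at the start of PEG3 and at 2.13% of all starts. NNAT held CCATNTT, the core of YY1, found at 14.5% of all starts, and AAGGTCA, a core of SF-1, found at 3.78%. TATAAA was at 10.9% of all starts and at none of the 10 genes. These matches are descriptions of letters and show no binding.

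**Figure D1:**
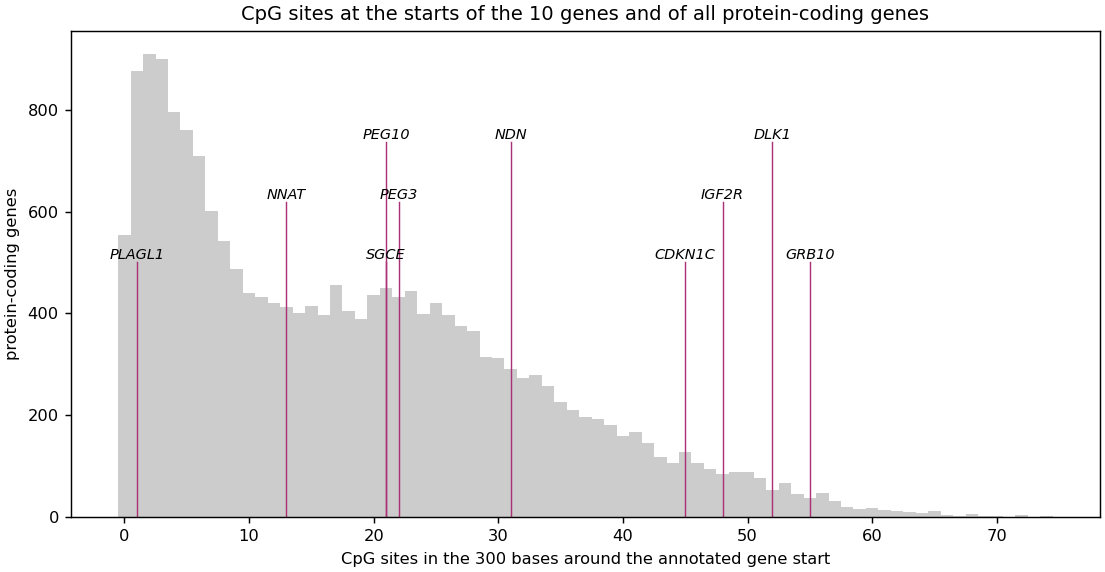
Number of CpG sites in the 300 bases from 250 before to 50 after the annotated gene start (horizontal axis) against the number of protein-coding genes (vertical axis, grey bars). Lines mark the 10 imprinted genes, of which 8 lie at 20 CpG sites or more and PLAGL1 lies at 1.

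The ovary ZD8 (LLS) stood apart from the other 5 ovaries in cell type markers, and the differences between groups are therefore given with and without it. The libraries held between 32272803 and 60903268 reads, with ZD8 the shallowest. The summed level of 6 luteal markers was 123 FPKM in ZD8 and 9170 to 12200 FPKM elsewhere (9170 to 10800 in SLS), all 6 being lowest in ZD8. The 6 theca markers summed to 512 FPKM in ZD8 and 24.8 to 109 FPKM elsewhere (26.4 to 109 in SLS), and 6 oocyte markers to 106 FPKM against 6.37 to 21.0 FPKM (6.37 to 21.0 in SLS), all 12 being highest in ZD8. None of these markers was at 0 in all ovaries, but the granulosa enzyme CYP19A1 was at 0 in 5 of the 6 ovaries and the summed granulosa level was 387 to 772 FPKM in SLS and 300, 177 and 130 FPKM in ZD5, ZD7 and ZD8, every LLS ovary lying below every SLS ovary. That sum was carried by INHA, at 376 to 726 FPKM in SLS and 66.4 to 285 FPKM in LLS, whereas 3 of the 6 granulosa markers, FSHR, AMH and FOXL2, were highest in ZD8. Endothelial markers summed to 143 FPKM in ZD8 and 288 to 425 FPKM elsewhere. Over all ovaries, sums were 329 to 1870 FPKM for smooth muscle, 3370 to 9590 for stroma, 22.7 to 42.1 for immune cells and 6.46 to 50.5 for surface epithelium, and at most 0.904 for adrenal and 0.329 for adipose markers. Among 12260 genes tested, 44.6% had their highest level in ZD8.

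The 10 genes ranged from abundant to scarcely detected. The median over the 6 ovaries was 226 FPKM for PEG10, 61.9 for IGF2R, 20.2 for SGCE, 18.4 for NDN, 11.7 for GRB10, 3.37 for CDKN1C, 2.19 for PLAGL1, 2.13 for PEG3, 0.509 for NNAT and 0.194 for DLK1. FPKM is a level per transcript length, so genes can be set beside each other on this scale. Every gene overlapped over the ovaries with its neighbour in this order. PEG10 in ZD12, at 15.1 FPKM, lay below IGF2R there, at 44.4 FPKM, and CDKN1C in ZD8, at 17.2 FPKM, lay above GRB10 there, at 10.6 FPKM. GRB10 was the steadiest, with 1.60-fold between the highest and the lowest ovary, followed by SGCE at 1.68-fold. PEG10 was the most variable at 23.1-fold, and NNAT (12.4-fold), CDKN1C (9.15-fold), PLAGL1 (7.24-fold) and PEG3 (6.13-fold) followed.

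**Figure D2:**
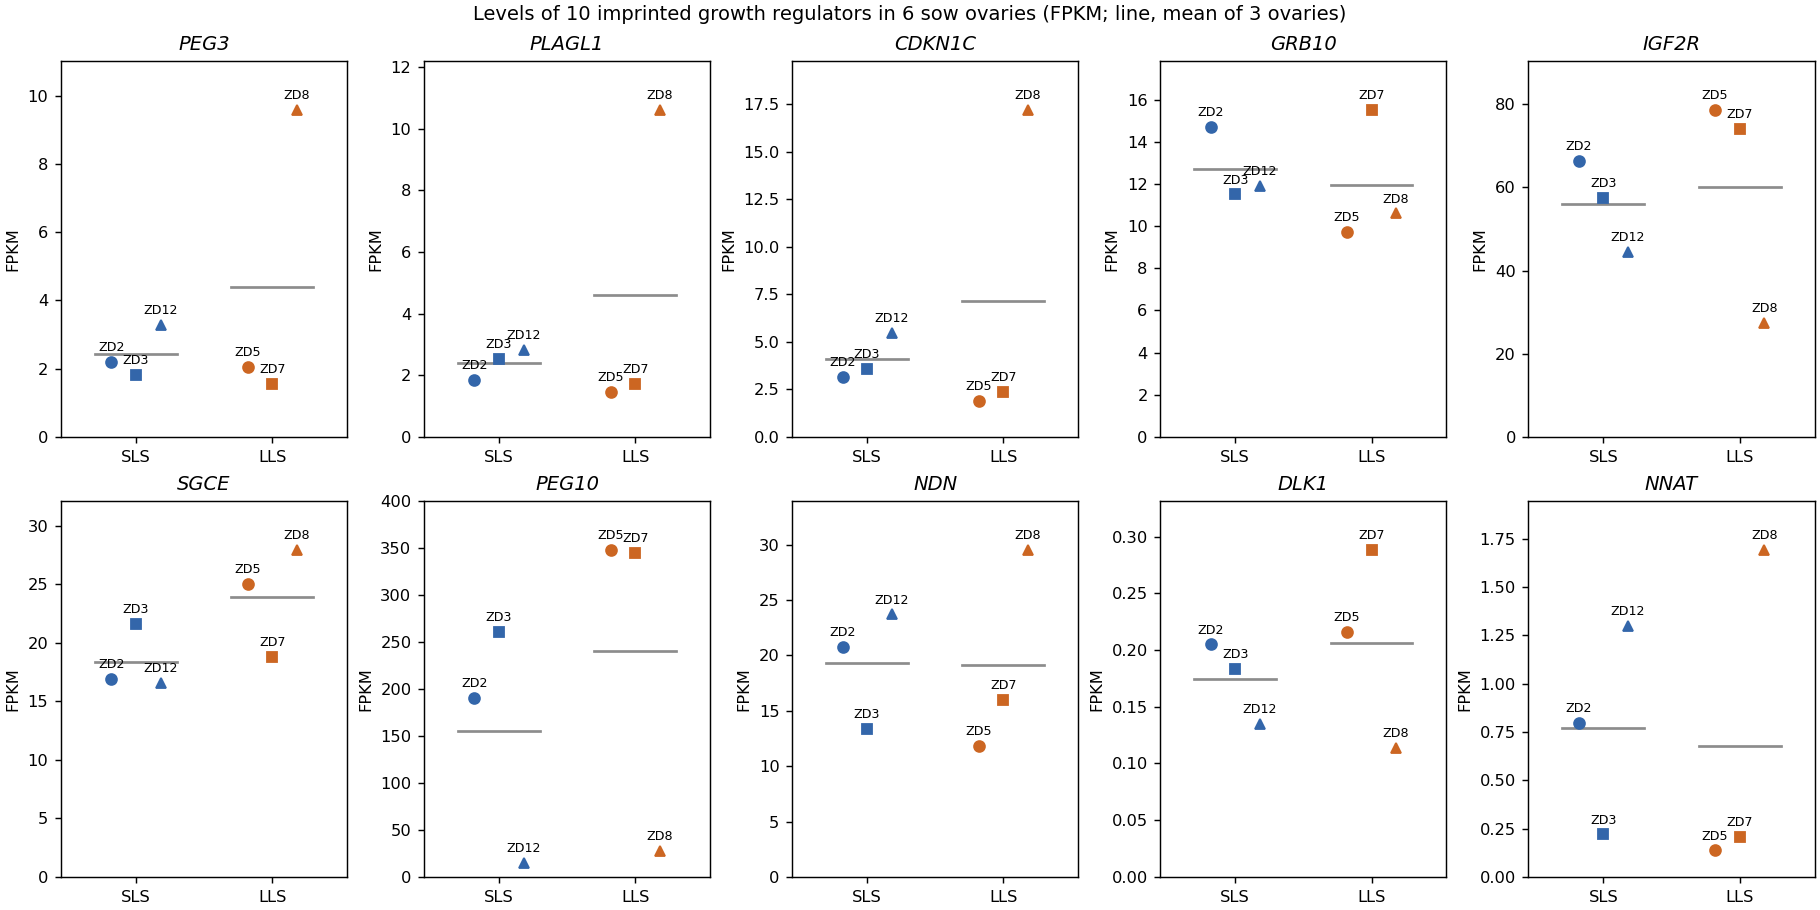
FPKM (vertical axis, linear and from 0, with its own scale for each gene) of the 10 genes in each ovary of the SLS (blue) and LLS (orange) groups, with a line at the mean of 3 ovaries. ZD8 lies far above the other ovaries for PEG3, PLAGL1 and CDKN1C, and ZD12 and ZD8 lie far below them for PEG10.

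No member passed the test between LLS and SLS against the spread between ovaries. Of the 10 genes, 8 passed the filter of at least 1 FPKM in at least 3 libraries, and DLK1 and NNAT did not. Of these 8, 0 were called by limma, where a call needed a log2 fold change beyond 1 and a p under 0.05 after Benjamini-Hochberg adjustment, and each had an adjusted p of 0.9994. The background was 0 calls among 12260 genes (0.0%). At an unadjusted p under 0.05 limma held 216 genes and none of the 8 members. The SLS and LLS values overlapped for 8 of the 8 members, and 5.12% of all genes tested did not overlap. Exact two-sided permutation tests of the 10 genes gave p between 0.2 and 1.0, where 3 ovaries against 3 cannot go below 0.1. A lower level can mean fewer cells of a type or less RNA per cell, which cannot be told apart in whole ovaries.

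PEG3 (chromosome 6, 61281931 to 61307788, minus strand), PLAGL1 (chromosome 1, 21299830 to 21371070, plus strand) and CDKN1C (chromosome 2, 2019391 to 2022092, minus strand) shared a profile with 1 high ovary. CDKN1C measured 3.15, 3.59 and 5.49 FPKM in ZD2, ZD3 and ZD12 (SLS) and 1.88, 2.37 and 17.2 FPKM in ZD5, ZD7 and ZD8 (LLS). Thus the LLS group held both the lowest and the highest ovaries, and its mean was 7.16 ± 8.72 FPKM (SD, n = 3) against 4.08 ± 1.24 FPKM (SD, n = 3) in SLS. On the log2 scale, LLS exceeded SLS by 0.17 (SE 0.66) with all ovaries by limma, by 0.53 by edgeR and by 0.50 by DESeq2, and no test called it. The limma value was -0.68 (SE 0.28) without ZD8, with both remaining LLS ovaries below all 3 SLS ovaries, an unadjusted p of 0.036 and an adjusted p of 0.757 by limma.

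PLAGL1 measured 1.84, 2.54 and 2.82 FPKM in ZD2, ZD3 and ZD12 and 1.47, 1.71 and 10.6 FPKM in ZD5, ZD7 and ZD8. ZD8 was 3.78-fold above the next ovary, and the other LLS ovaries were the lowest of the 6. The log2 fold change was 0.34 (SE 0.57) by limma, 0.67 by edgeR and 0.64 by DESeq2, and -0.38 (SE 0.25) by limma without ZD8. PEG3 measured 2.19, 1.81 and 3.29 FPKM in the SLS ovaries and 2.06, 1.56 and 9.58 FPKM in the LLS ovaries, with the ovaries listed in the same order. ZD8 was 2.91-fold above ZD12, the next ovary. The log2 fold change of PEG3 was 0.37 (SE 0.53) by limma, 0.63 by edgeR and 0.60 by DESeq2, and -0.27 (SE 0.27) by limma without ZD8. For these 3 genes, ZD8 was highest and ZD12 was next, and the same 2 ovaries had the highest sums of theca and oocyte markers. The part of those cells in these levels was not tested.

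On the IGF side, IGF2R (chromosome 1, 7369485 to 7472480, minus strand) was abundant and was lowest in ZD8. Its levels were 66.4, 57.4 and 44.4 FPKM in ZD2, ZD3 and ZD12 and 78.6, 74.1 and 27.4 FPKM in ZD5, ZD7 and ZD8. The highest 2 ovaries and the lowest belonged to LLS, and the group means were 60.0 ± 28.3 FPKM (SD, n = 3) in LLS and 56.1 ± 11.1 FPKM (SD, n = 3) in SLS. The log2 fold change was -0.02 (SE 0.43), and 0.46 (SE 0.26) without ZD8, where both LLS ovaries exceeded all SLS ovaries. It also turned positive without ZD2 (0.11) or without ZD3 (0.0023). GRB10 (chromosome 9, 136580363 to 136742552, minus strand) measured 14.7, 11.5 and 11.9 FPKM in the SLS ovaries and 9.71, 15.5 and 10.6 FPKM in the LLS ovaries. The groups were interleaved, with a log2 fold change of -0.10 (SE 0.28). It was 0.0043 without ZD2, 0.03 without ZD5 and -0.03 without ZD8, but -0.29 (SE 0.34) without ZD7, where both remaining LLS ovaries lay below all SLS ovaries and 12.8% of all genes did not overlap.

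PEG10 separated the ovaries more than any other member. It reached 191 and 261 FPKM in ZD2 and ZD3 but 15.1 FPKM in ZD12 within SLS, and 348 and 345 FPKM in ZD5 and ZD7 but 28.1 FPKM in ZD8 within LLS. Each group thus held 2 high ovaries and 1 low ovary, and the low values rested on 5223 reads in ZD12 and 5934 reads in ZD8. The means were 240.0 ± 184 FPKM (SD, n = 3) in LLS and 156 ± 127 FPKM (SD, n = 3) in SLS. Between the groups the log2 fold change was 0.71 (SE 1.25). It was 1.90 (SE 0.94) without ZD8, with an adjusted p of 0.929 by limma, and was -0.56 (SE 1.06) without ZD12 and 0.11 without ZD5 or without ZD7. Leaving out ZD2 or ZD3 gave 1.23 and 1.45. Without ZD8, edgeR gave 1.21 and DESeq2 1.18 on the recovered reads. With limma's array weights it was 2.50 (SE 0.85, unadjusted p 0.014, adjusted p 0.316). The low level in ZD12 went with a luteal marker sum of 9170 FPKM, the lowest apart from ZD8 and near the 9610 FPKM of ZD2, whereas that in ZD8 went with the sum of 123 FPKM.

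SGCE and PEG10, whose starts lie side by side, differed mainly in the place of ZD8 and in the size of their range. SGCE measured 16.9, 21.6 and 16.6 FPKM in ZD2, ZD3 and ZD12 and 25.0, 18.8 and 27.9 FPKM in ZD5, ZD7 and ZD8. ZD12 was the lowest ovary for both genes, whereas ZD8 was the highest for SGCE and next to the lowest for PEG10. From low to high, the other ovaries ran ZD2, ZD7, ZD3 and ZD5 for SGCE and ZD2, ZD3, ZD7 and ZD5 for PEG10. In ZD8 the levels of SGCE and PEG10 were 27.9 and 28.1 FPKM, whereas in ZD7 PEG10 was at 345 FPKM and SGCE at 18.8 FPKM. The log2 fold change of SGCE was 0.35 (SE 0.27), and 0.24 (SE 0.25) without ZD8, and its exact p of 0.2 was the smallest among the 10 genes. Both genes start at the edges of the 216-base interval printed above.

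The other genes around PEG10 also kept their own order. COL1A2, a collagen chain, starts 300 kb before PEG10 and ranged from 466 FPKM in ZD8 to 2380 FPKM in ZD2. CASD1, an enzyme that acetylates sialic acid, starts 198 kb before it and ranged from 5.95 to 15.8 FPKM. PPP1R9A (neurabin), 161 kb after it, ranged from 4.01 to 10.7 FPKM. None of these had ZD12 as its lowest ovary. The long noncoding RNA LOC102163402 ranged from 0.983 to 4.19 FPKM. The other 2 long noncoding RNAs and the pseudogene within 500 kb were below 1 FPKM in all ovaries, as were PON1 and PON3, and LOC100738575 was listed at 0.

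**Figure D3:**
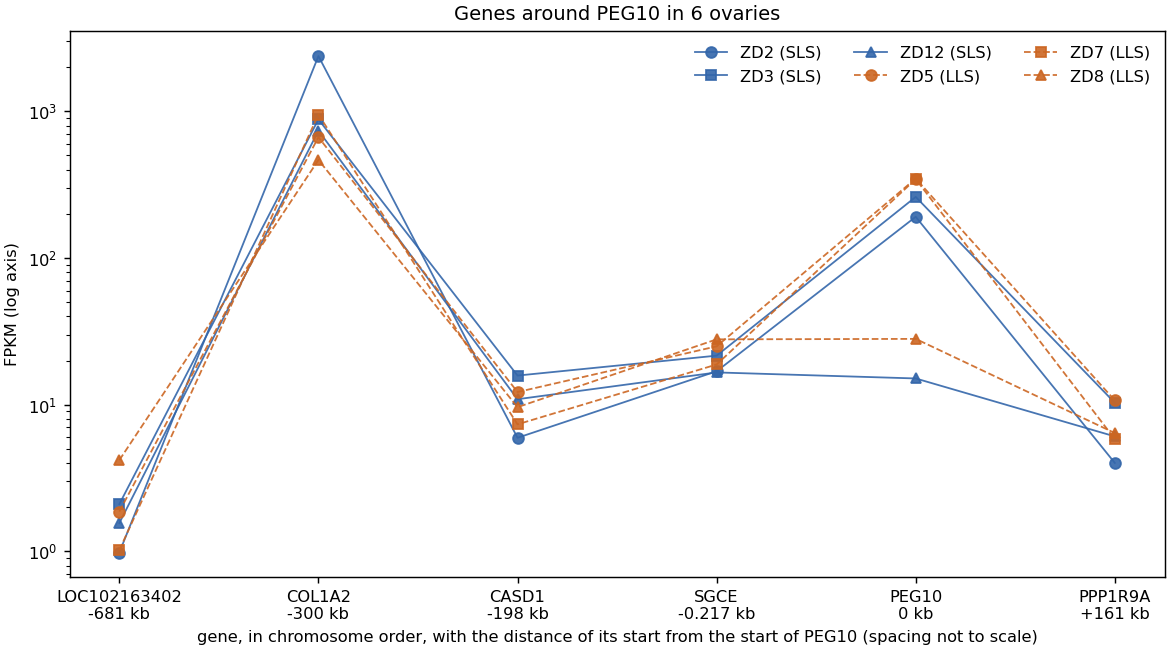
FPKM on a log axis (vertical) of the genes with at least 1 FPKM in at least 3 ovaries whose spans come within 500 kb of PEG10, in chromosome order (horizontal, spacing not to scale, with the distance of each start from that of PEG10). Each line is an ovary, and ZD12 and ZD8 fall below the others at PEG10 while SGCE beside it stays between 16.6 and 27.9 FPKM in all 6.

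The genes whose pattern over the 6 ovaries came nearest to PEG10 were FOS, HUNK, FMO1, PTX3 and CXCR4. They were ranked by the root mean squared difference of centred log2(FPKM + 1), which was 0.535 for FOS and 0.817 for CXCR4, against a range of 4.44 for PEG10 itself. FOS, an immediate early transcription factor, measured 123, 87.5 and 16.1 FPKM in ZD2, ZD3 and ZD12 and 212, 140 and 12.9 FPKM in ZD5, ZD7 and ZD8. CXCR4, a chemokine receptor, measured 108, 103 and 21.4 FPKM in the SLS ovaries and 615, 352 and 12.1 FPKM in the LLS ovaries. In all 5, ZD12 and ZD8 were the lowest ovaries, as for PEG10, and ZD5 was the highest. In the steroidogenic genes of the corpus luteum, ZD12 lay near other ovaries. STAR, which brings cholesterol into mitochondria, was at 2720 FPKM in ZD12 and 2540 FPKM in ZD2, and CYP11A1, which makes pregnenolone, at 1570 FPKM in ZD12 and 1560 FPKM in ZD3. SCARB1, a receptor for high-density lipoprotein, was at 31.2 FPKM in ZD8, 1040 FPKM in ZD12 and 1120 to 1690 FPKM in the other 4 ovaries.

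**Figure D4:**
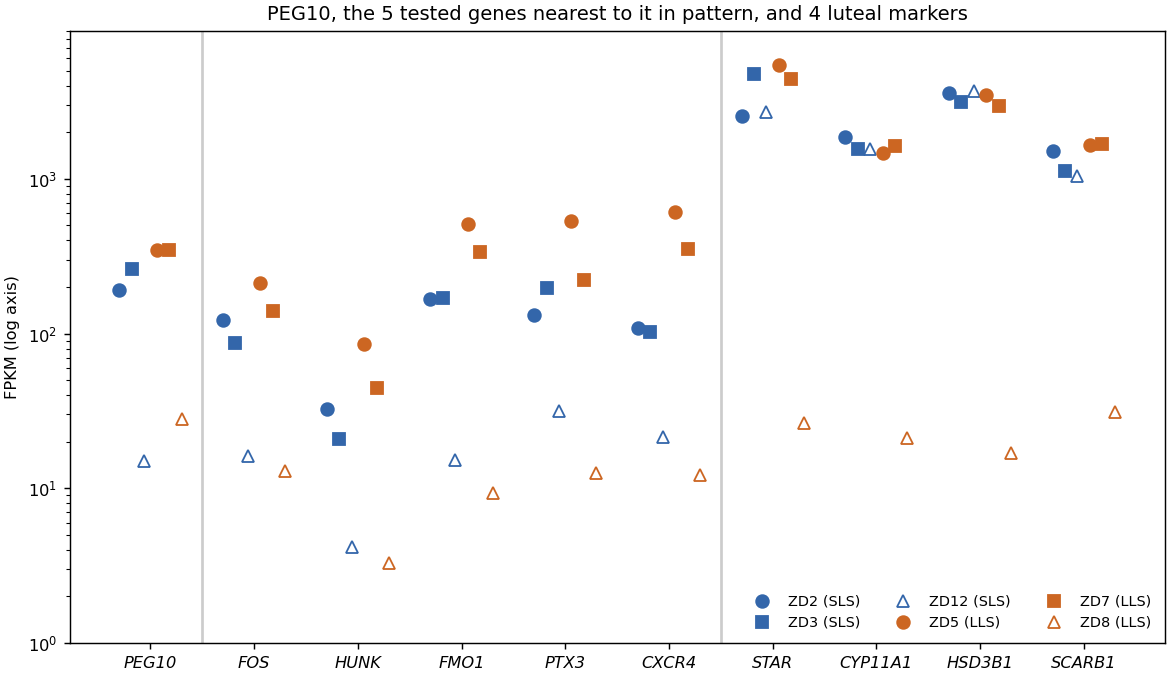
FPKM on a log axis (vertical) of PEG10, the 5 tested genes nearest to it in pattern and 4 luteal markers (horizontal), for SLS (blue) and LLS (orange) ovaries, with ZD12 and ZD8 as open triangles. Both triangles lie below the other ovaries for PEG10, the 5 genes and SCARB1 (31.2 FPKM in ZD8 and 1040 FPKM in ZD12), while for STAR, CYP11A1 and HSD3B1 only ZD8 does, with STAR at 26.4 FPKM in ZD8 and 2720 FPKM in ZD12.

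Genes near in pattern to PEG3, PLAGL1 and CDKN1C shared their high value in ZD8. For PEG3 they included LOC110256967, ACBD4, ZNF672 and ZNF395, with differences from 0.0608 to 0.0741. For PLAGL1 they included FBXL21, SVIL, RPL23A and BNC2, and for CDKN1C they were SLC38A1, PDZRN3, APBB3, CTTNBP2 and WNT9A. SLC38A1, an amino acid transporter, measured 14.2, 16.0 and 22.2 FPKM in the SLS ovaries and 8.43, 11.8 and 74.2 FPKM in the LLS ovaries. All 13 genes named here were highest in ZD8 with ZD12 next, as were these 3 members. With 6 points and an ovary this far out, likeness of pattern is a description only.

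NDN (chromosome 1, 142412688 to 142413665, plus strand) was expressed at a level near SGCE. It measured 20.8, 13.4 and 23.7 FPKM in ZD2, ZD3 and ZD12 and 11.8, 16.0 and 29.5 FPKM in ZD5, ZD7 and ZD8. ZD8 and ZD12 were again the highest, and the groups overlapped. NDN had a log2 fold change of -0.08 (SE 0.38), and of -0.42 (SE 0.29) without ZD8, and it was positive without ZD12 (0.08) or ZD5 (0.20). NDN is annotated as 1 exon of 978 bases, a coding length without flanking sequence. MAGEL2, its imprinted neighbour 36.7 kb away, ranged from 1.33 FPKM in ZD5 to 5.54 FPKM in ZD8.

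DLK1 (chromosome 7, 121565844 to 121577493, plus strand) and NNAT (chromosome 17, 40625990 to 40629523, plus strand) were scarcely expressed. DLK1 measured 0.205, 0.183 and 0.135 FPKM in the SLS ovaries and 0.216, 0.288 and 0.114 FPKM in the LLS ovaries, from 16 to 76 reads per library. This was above the 0.0114 to 0.0215 FPKM that 3 reads are worth, and ZD8 was the lowest ovary. NNAT measured 0.797, 0.22 and 1.30 FPKM in ZD2, ZD3 and ZD12 and 0.137, 0.208 and 1.69 FPKM in ZD5, ZD7 and ZD8, from 18 to 157 reads. ZD8 and ZD12 were the highest, as for CDKN1C. NNAT lies inside BLCAP, which is transcribed from the opposite strand and measured 3.25 to 7.11 FPKM, and the libraries kept the strand of the RNA. Whether the counting used it is not given in the sources used here, so part of the reads may belong to the other gene. Neither gene entered the main test because of the filter, and neither was called by limma when the filter was lifted, with log2 fold changes of 0.04 (SE 0.07) for DLK1 and -0.15 (SE 0.42) for NNAT. On the recovered reads, edgeR and DESeq2 gave 0.27 and 0.25 for DLK1, and 0.64 and 0.62 without ZD8. For NNAT they gave -0.45 and -0.48, and -1.97 and -2.00 without ZD8, where the unadjusted p was 0.037 by edgeR and 0.0083 by DESeq2 and the adjusted p 0.769 and 0.258.

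The region around DLK1 also carries miRNA genes, which were read in the small RNA libraries. Of 10 mature miRNAs annotated within 1 Mb of DLK1, 9 were in the small RNA table. Those of miR-342, miR-345 and miR-9830 lie before DLK1, and those of miR-127, miR-493 and miR-432 after it. Their sum thus describes a window, and most of it came from miR-127. Its mature sequence, read from chr7:121709688-121709709 on the plus strand, is shown with its seed (bases 2 to 8) in capitals.
miR-127: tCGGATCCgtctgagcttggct
miR-127 measured 589, 733 and 471 RPM (miRNA reads scaled to the library total) in ZD2, ZD3 and ZD12 and 658, 795 and 384 RPM in ZD5, ZD7 and ZD8. ZD8 and ZD12 were the lowest, which was also their order for DLK1. The 9 miRNAs summed to 756 ± 234 RPM (SD, n = 3) in LLS and 727 ± 152 RPM (SD, n = 3) in SLS, a log2 difference of 0.02 with an exact two-sided permutation p of 1.0. The difference was 0.30 without ZD8, 0.18 without ZD3, 0.02 without ZD2, -0.13 without ZD12, -0.07 without ZD5, -0.16 without ZD7 and -0.033 when only miRNAs within 500 kb were summed. The imprinted noncoding RNA MEG3, 78.8 kb from DLK1, ranged from 0.369 FPKM in ZD7 to 2.67 FPKM in ZD8, and RTL1 was listed at 0.

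**Figure D5:**
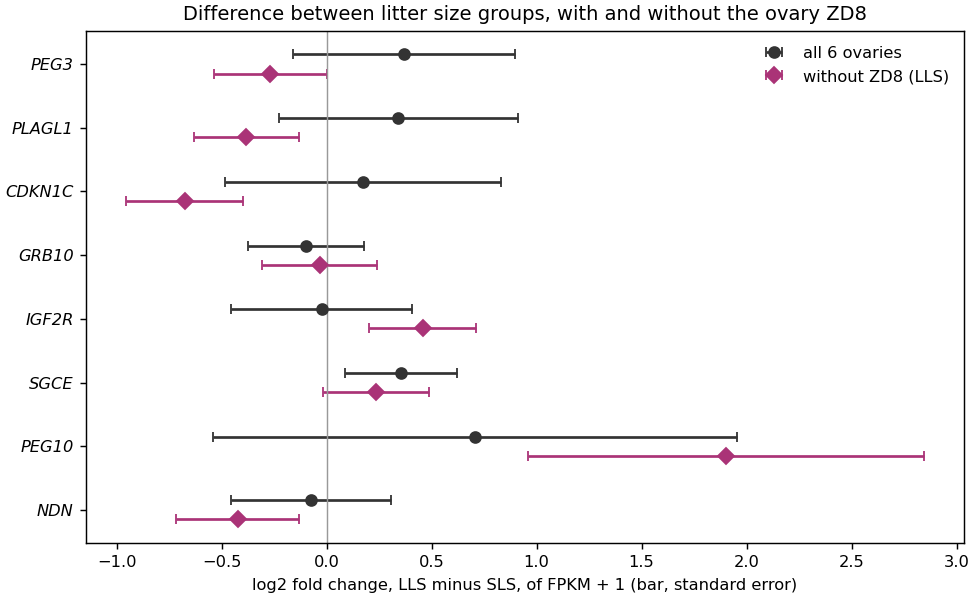
Log2 fold change of LLS over SLS on the log2(FPKM + 1) scale (horizontal axis) with its standard error for the 8 genes tested (vertical axis), with all 6 ovaries (grey circles) and without ZD8 (purple diamonds). PEG3, PLAGL1, CDKN1C and IGF2R change sign when ZD8 is left out, and PEG10 moves from 0.71 to 1.90.

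Without ZD8, the values of LLS and SLS no longer overlapped for 4 of the 8 members, with LLS above in 2 (PEG10 and IGF2R) and below in 2 (CDKN1C and PLAGL1). The values of DLK1 (LLS above) and NNAT (LLS below) did not overlap either, but these genes were under the filter and not tested by limma. Of all 11985 genes then tested, 7.53% lay above without overlap in LLS and 11.5% lay below. Limma then called 0 members and 20 of all genes (0.167%). With all 6 ovaries kept, 6 of the 10 genes, PEG3, PLAGL1, NNAT, CDKN1C, SGCE and NDN, had their highest level in ZD8, beside the 44.6% of all genes tested. DLK1 and IGF2R had their lowest level there, as did 26.3% of all genes. ZD12 held the lowest level of PEG10 and SGCE, and of 2.98% of all genes.

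The partners of these genes were read from lists of the surrounding pathways. Of 23 genes of IGF and insulin signalling, 21 were tested and 0 were called, 13 being higher and 8 lower in LLS with a median log2 fold change of 0.16, beside 0.02 over all genes. Of all genes, 52.6% were higher in LLS with 6 ovaries and 34.2% without ZD8. Without ZD8, 8 genes of the list were higher and 13 lower, and their median was -0.20, beside -0.10 over all genes. The smallest p belonged to IGF1, the ligand of the IGF1 receptor, with 5.96, 11.0 and 5.54 FPKM in the SLS ovaries and 6.04, 2.99 and 3.50 FPKM in the LLS ovaries, which overlapped. Its log2 fold change was -0.70 (SE 0.36) with an adjusted p of 0.9994 by limma, and -0.62 (SE 0.35) without ZD8. IGF2, the ligand that IGF2R clears, measured 30.0 to 44.8 FPKM in 5 ovaries and 142 FPKM in ZD8, where IGF2R was lowest. On the recovered reads without ZD8, DESeq2 called 2 of 22 genes of this list, IGFBP3 and M6PR, beside 259 of all 22833 genes tested, and edgeR called 0. M6PR, the other receptor for mannose-6-phosphate, was picked after its values were seen, with 36.4 to 40.4 FPKM in SLS, 88.5 and 74.8 FPKM in ZD5 and ZD7 and 21.0 FPKM in ZD8. It thus had the order of IGF2R among the LLS ovaries, with a log2 fold change of 0.43 (SE 0.51), and 1.06 (SE 0.23, adjusted p 0.148 by limma) without ZD8. IGFBP3, which binds IGFs in the circulation and was likewise picked afterwards, had 26.3 to 38.6 FPKM in SLS, 111 and 61.5 FPKM in ZD5 and ZD7 and 5.54 FPKM in ZD8, so its LLS ovaries also held the highest and the lowest levels. Its difference was 0.17 (SE 0.91), and 1.39 (SE 0.31, adjusted p 0.15 by limma) without ZD8.

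Of 22 CDK inhibitors, cyclins and proliferation genes around CDKN1C and PLAGL1, 20 were tested and 0 were called. In LLS, 16 were lower and 4 higher, with a median log2 fold change of -0.30. Without ZD8, 15 were lower and 5 higher, with a median of -0.32, while 34.2% of all genes were higher. In 6 of the 20, all LLS ovaries lay below all SLS ovaries, and 3.17% of all genes tested did so. Without ZD8 there were 8 of 20, beside the 11.5% of all genes. The summed granulosa markers were at 387 to 772 FPKM in SLS and 130 to 300 FPKM in LLS, but INHA alone carried this sum. FSHR, AMH and INHBA overlapped between the groups and leaned the other way, each with its lowest ovary in SLS and its highest in LLS. FSHR had 0.202 to 4.5 FPKM in SLS and 1.11 to 10.8 FPKM in LLS, and INHBA 2.33 to 4.11 and 2.91 to 4.66 FPKM. For FOXL2, LLS held both the lowest and the highest ovary, and CYP19A1 was scarcely detected. The sum is thus no measure of granulosa content, and the part of granulosa cells in these levels was not tested. CCNB1, the mitotic cyclin, measured 12.1, 17.2 and 15.6 FPKM in ZD2, ZD3 and ZD12 and 8.31, 10.3 and 6.62 FPKM in ZD5, ZD7 and ZD8. Its groups did not overlap, and its log2 fold change was -0.77 (SE 0.28, p 0.023, adjusted p 0.9994 by limma), and -0.63 (SE 0.26) without ZD8. CCNA2, the cyclin of DNA replication, had 13.0 to 15.0 FPKM in SLS and 7.91 to 10.1 FPKM in LLS, a log2 fold change of -0.60 (SE 0.24), and -0.52 (SE 0.24) without ZD8. MKI67, a marker of dividing cells, had 12.9 to 14.1 FPKM in SLS and 5.08 to 10.9 FPKM in LLS, a log2 fold change of -0.71 (SE 0.31), and -0.44 (SE 0.24) without ZD8. Of the closest kin of CDKN1C, named after their values were seen, CDKN1B was highest in ZD8 at 49.6 FPKM and CDKN1A was lowest there at 22.2 FPKM.

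Of 15 Notch pathway genes around DLK1, 14 were tested and 0 were called, 7 higher and 7 lower in LLS, with a median log2 fold change of -0.09. With all 6 ovaries, edgeR gave 2 higher and 12 lower, and DESeq2 gave 3 higher and 12 lower. Without ZD8, limma gave 3 higher and 11 lower, with a median of -0.18, while 34.2% of all genes were higher. In 2 of the Notch genes, both expressed in blood vessels, LLS lay below SLS in every ovary, beside 3.17% of all genes. Without ZD8 there were 3 of 14, beside 11.5%. DLL4, a ligand, had 10.5 to 12 FPKM in SLS and 5.65 to 8.40 FPKM in LLS (log2 fold change -0.61, SE 0.26, and -0.47 without ZD8), and NOTCH4, a receptor, had 9.31 to 11.1 FPKM and 3.62 to 8.02 FPKM (-0.72, SE 0.32, and -0.44 without ZD8). The sums of endothelial markers were 300 to 364 FPKM in SLS and 143 to 425 FPKM in LLS. Among them, PECAM1 did not overlap, at 87.7 to 105 FPKM in SLS and 25.4 to 86.0 FPKM in LLS. CDH5, VWF, TEK, KDR and CLDN5 overlapped. The part of endothelial cells in the levels of DLL4 and NOTCH4 was not tested. Of 14 genes of the sarcoglycan and dystrophin complex around SGCE, 11 were tested and 0 were called, 9 higher and 2 lower in LLS, with a median of 0.19. Without ZD8, 2 were higher and 8 lower, with a median of -0.23, while 34.2% of all genes were higher. DTNA (dystrobrevin alpha) had 0.752 to 0.881 FPKM in SLS and 1.44 to 2.59 FPKM in LLS, without overlap, as in 1.95% of all genes tested with LLS above. It passed the filter only through its 3 LLS ovaries. The difference and the lack of overlap were thus fixed by the filter, and no test of them is given. DTNA is still counted among the 9 higher genes. Without ZD8, DTNA was not tested by limma. With DTNA left out, DESeq2 on the recovered reads then called SNTB1, a syntrophin, of this list, beside 259 of 22833 genes, while edgeR called 0.

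Other genes reported as imprinted in at least some mammals were also read. Of 49 such names, 41 were in the table and 24 were tested, with 0 called, 13 higher and 11 lower in LLS, and a median log2 fold change of 0.06. Without ZD8, 5 were higher and 17 lower, with a median of -0.20, while 34.2% of all genes were higher and their median was -0.10. Of the 24, 13 had their highest level in ZD8. The smallest p belonged to KCNQ1, a potassium channel gene 30.3 kb from CDKN1C, with 67.8, 49.3 and 80.2 FPKM in SLS and 26.8, 53.3 and 8.07 FPKM in LLS. Its log2 fold change was -1.45 (SE 0.59, p 0.039, adjusted p 0.9994 by limma), with overlap between the groups, and -0.75 (SE 0.33) without ZD8. PHLDA2, a growth-restraining gene on the other side of CDKN1C, 35.6 kb away, was at 0.41 FPKM in ZD8 and 4.59 to 7.34 FPKM elsewhere. In ZD8 the level of CDKN1C was thus the highest of the 6 ovaries, whereas those of both KCNQ1 and PHLDA2 were the lowest. Other imprinted neighbours went either way. OSBPL5, 180 kb away, and IGF2, 523 kb away, were highest in ZD8, at 8.79 and 142 FPKM. SLC22A18, 10.3 kb away, was lowest there at 0.0467 FPKM, and NAP1L4, CD81 and TSSC4 were neither highest nor lowest.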

How the data were processed

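Gene and small RNA libraries of 6 ovaries were analysed, grouped by the sample labels. The authors trimmed reads with NGSQCToolkit v2.3.3, mapped them to Sscrofa11.1 with HISAT2 and deposited FPKM values; the program and annotation used to count genes are not given in the sources used here. The authors also deposited miRNA values under the name TPM, which are miRNA reads scaled to the library total (RPM), and the submitters' processing notes name BWA. Whole reads were recovered for 23477 of 23564 genes (99.6%, within 0.001 read) and for all miRNA values, from small RNA libraries of 3537619 to 9854086 reads.

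Genes with at least 1 FPKM in at least 3 libraries were tested by limma 3.58.1 (R 4.3.3) with a trended variance on log2(FPKM + 1), a scale that understates changes of low genes. Calls needed a log2 fold change past 1 in size and a Benjamini-Hochberg p under 0.05. Each ovary came from a separate sow. Single genes and the miRNA sum were compared by exact permutation. Alternatives were a pseudocount of 0.1, no filter, rescaling to an equal sum, median centring, array weights, edgeR 4.0.16 and DESeq2 1.42.0 on recovered reads, and leaving out each ovary. The limma, edgeR and DESeq2 fits were tested on simulated data. Where the simulated spread was large, all of them missed most of the smaller changes, and DESeq2 called more unchanged genes than its threshold allows, so 0 calls do not show that levels were alike. Sequences were read from the RefSeq genome of the same build with pysam 0.24.0. Named were the 10 members, up to 3 genes per list without overlap by smallest p or else that with the smallest p, and the 5 genes nearest in pattern to members ranging over more than 2 on the log2 scale; genome neighbours and functional partners were added after values were seen. Some genes that this rule selects are not reported here. The members, lists and tests were chosen with earlier results of these data known.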

Additional observations from a re-analysis of the deposited data

How the results depend on the processing

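No member was called under any alternative. Of the 5 gene lists, 0 genes were called either, except by DESeq2 without ZD8. With DTNA left out as above, it called IGFBP3 and M6PR of the IGF list and SNTB1 of the sarcoglycan list. The number of genes called was 0 with all 6 ovaries by limma, 13 with array weights, 13 by DESeq2 and 0 by edgeR's quasi-likelihood test, which held 301 genes at an unadjusted p under 0.05. Leaving out 1 ovary at a time gave 0 to 20 calls by limma, the 20 being without ZD8. DESeq2 without ZD8, a setting added after the data were seen, called 259 of 22833 genes. The quasi-likelihood test of edgeR without ZD8, added likewise, called 0 of 17332 genes and held 1042 at an unadjusted p under 0.05. Members whose groups did not overlap numbered 0 to 4 over these settings, with 1 of 8 without ZD3, 2 of 8 without ZD7 and 4 of 8 without ZD8, beside 16.3%, 12.8% and 19% of all genes. With array weights the log2 fold change was -0.69 for CDKN1C, -0.53 for NDN, -0.34 for PLAGL1, -0.32 for PEG3, 0.48 for IGF2R and 2.50 for PEG10. For IGF2R it was 0.14 by edgeR and 0.12 by DESeq2. Without ZD8, limma, edgeR and DESeq2 in this order gave -0.68, -0.78 and -0.80 for CDKN1C, -0.38, -0.45 and -0.47 for PLAGL1, -0.27, -0.26 and -0.29 for PEG3, 0.46, 0.56 and 0.53 for IGF2R, 1.90, 1.21 and 1.18 for PEG10, and -0.03, 0.11 and 0.091 for GRB10, where the edgeR and DESeq2 settings were added after the data were seen. GRB10 was 0.0043 without ZD2 and 0.026 without ZD5. Over the settings that left out an ovary, the log2 fold changes ran from -0.80 to 0.65 for CDKN1C, from -0.47 to 0.74 for PLAGL1, from -0.29 to 0.75 for PEG3, from -0.29 to 0.56 for IGF2R, from -0.56 to 1.90 for PEG10, from -0.29 to 0.11 for GRB10, from -0.42 to 0.20 for NDN and from 0.24 to 0.51 for SGCE, the last keeping its sign. The log2 differences of DLK1 and NNAT, which were below the filter, over these alternatives ran from -0.012 to 0.64 and from -2.00 to 0.07. The sum of the miRNAs near DLK1 ran from -0.16 to 0.30 and was -0.033 within 500 kb. The cause of these shifts was not tested. In the 250 bases before the start alone, 6 of the 10 genes (60.0%) held at least 20 CpG sites, beside 29.9% of all protein-coding genes. There, TGCCGC was left at 1 gene (NNAT) and AAGGTCA at 0. No paired analysis was possible because the replicate numbers follow only the order of the samples and the labels tie no SLS ovary to an LLS ovary. Depth limited DLK1 and NNAT most, with as few as 16 and 18 reads.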
